A study of Mus musculus with 8 samples.

Results

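The genes described are the enzymes of the methionine cycle and its betaine branch in mouse hepatocytes, chosen by name as Bhmt, Bhmt2, Dmgdh, Mat1a, Mat2a, Mat2b, Gnmt, Ahcy, Cbs and Cth. Probes were taken where the annotated gene symbol, current or older, was one of these 10. That gave 12 probes of 9 genes among the 16304 probes of the array, and no probe was named for Mat2a. The genes were picked with the metformin comparison already known, Bhmt2 being among its largest rises, so their metformin and control values are given as a description and are not evidence for a pathway-wide effect.

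The cells were primary hepatocytes of male C57Bl6/J mice, freed from the liver with collagenase and kept in culture. Of 8 wells, 4 received 500 µM metformin, a glucose-lowering biguanide drug, and 4 were controls, all sampled at 24 h. Each well was read on 1 Illumina bead array, whose probes report the brightness of a transcript in log2 units, so that a difference of 1 is a doubling of brightness. The age of the mice, and whether separate mice or isolations stand behind the wells, are not given in the sources used here, so the errors cover only the spread between wells, which may be technical.

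Methionine adenosyltransferases turn methionine into S-adenosylmethionine, the methyl donor of the cell; Mat1a encodes the catalytic subunit of differentiated hepatocytes, Mat2a that of most other and of dividing cells, and Mat2b a regulatory subunit. Methyltransferases such as glycine N-methyltransferase (Gnmt) use the methyl group and leave S-adenosylhomocysteine, which Ahcy splits into adenosine and homocysteine. In the liver homocysteine is then either remethylated by Bhmt with betaine from choline, giving dimethylglycine that Dmgdh oxidises in mitochondria, or passed by Cbs and Cth into transsulfuration towards cysteine. Bhmt2 is a relative of Bhmt that takes its methyl group from S-methylmethionine.

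Bhmt, Bhmt2 and Dmgdh lie next to each other on mouse chromosome 13. Bhmt2 and Dmgdh are transcribed away from each other, with 133 bases between their annotated starts, while Bhmt has a start of its own. Both upstream stretches are shown because Bhmt2 rose with metformin, while no change was called for its neighbours Bhmt and Dmgdh. Any link between the sequences and these values was not tested. They are RefSeq sequences of GRCm38.p6, written 5′ to 3′ on the minus strand, which is the coding strand of Bhmt and Bhmt2, and capitals mark the letters AGGTCA (the half-site of nuclear receptors) or GGGCGG (the GC box), searched on both strands.
Bhmt2 to Dmgdh, chr13:93674303-93674435: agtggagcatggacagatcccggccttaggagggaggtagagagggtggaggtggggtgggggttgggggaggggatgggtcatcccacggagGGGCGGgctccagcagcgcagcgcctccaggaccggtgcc
Bhmt, chr13:93637759-93638008: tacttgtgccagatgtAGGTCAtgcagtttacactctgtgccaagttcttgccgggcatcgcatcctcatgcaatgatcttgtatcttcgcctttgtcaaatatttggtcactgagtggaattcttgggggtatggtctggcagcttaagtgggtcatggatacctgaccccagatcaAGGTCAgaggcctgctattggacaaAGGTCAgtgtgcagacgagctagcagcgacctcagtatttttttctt

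The stretch shared by Bhmt2 and Dmgdh was 69.9% G+C and held 1 GC box, a motif found in 27.5% of the 32851 RefSeq promoter windows over the same number of bases before the start. The 250 bases before the Bhmt start were 48.0% G+C, against a median of 52.4% over all windows of that length, and held AGGTCA 3 times. At least 1 copy occurred in 14.0% of windows of 250 bases and 3 or more in 0.131%. The Bhmt stretch also held 1 CCAAT box, on the other strand, a motif of 33.8% of windows. TATAAA, the E-box CACGTG and TGATGNAAT, the response element of C/EBP and ATF4, were in neither stretch. These matches describe letters and are not shown to be binding sites. Promoter windows were found for 8 of the 10 genes.

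Bhmt2 rose with metformin. Its probe read 9.02, 8.97, 9.44 and 8.49 log2 units in the metformin wells of replicates 1 to 4, against 7.69, 6.62, 7.55 and 7.24 in the control wells. Every metformin well lay above every control well, and control replicate 2 was the lowest of all wells. The means were 8.98 ± 0.39 with metformin and 7.28 ± 0.47 in controls (SD, n = 4 each), a difference of 1.70 ± 0.26 log2 units (SE) or 3.26-fold, with a 95% confidence interval of 2.19-fold to 4.86-fold. Only 11 of the 16304 probes, 0.0675%, had a larger rise. Between wells of the same replicate number the differences were 1.33, 2.34, 1.88 and 1.26.

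Bhmt2 was the only 1 of the 12 probes past the threshold of the limma fit over all probes, an adjusted p under 0.05, which 5.64% of all probes passed, 2.72% as higher and 2.93% as lower with metformin. With the replicate block it was again the only one, where 6.78% of all probes passed, and with arrays weighted by quality Ahcy and Cbs at ILMN_2701582 passed as well, as lower, where 10.2% of all probes passed. It was also the only one whose groups did not overlap, as those of 14.6% of all probes did not. It stayed past the threshold in each of the 8 fits that left out 1 array. All of these calls rest on the arrays that led to the choice of Bhmt2, so they describe it and are not independent support. Of the 12 probes, 5 had higher and 7 lower mean values with metformin, with a median difference of -0.10 log2 units, against 0.0032 over all probes. The plot of each probe by array shows the values behind these counts.

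**Figure D1:**
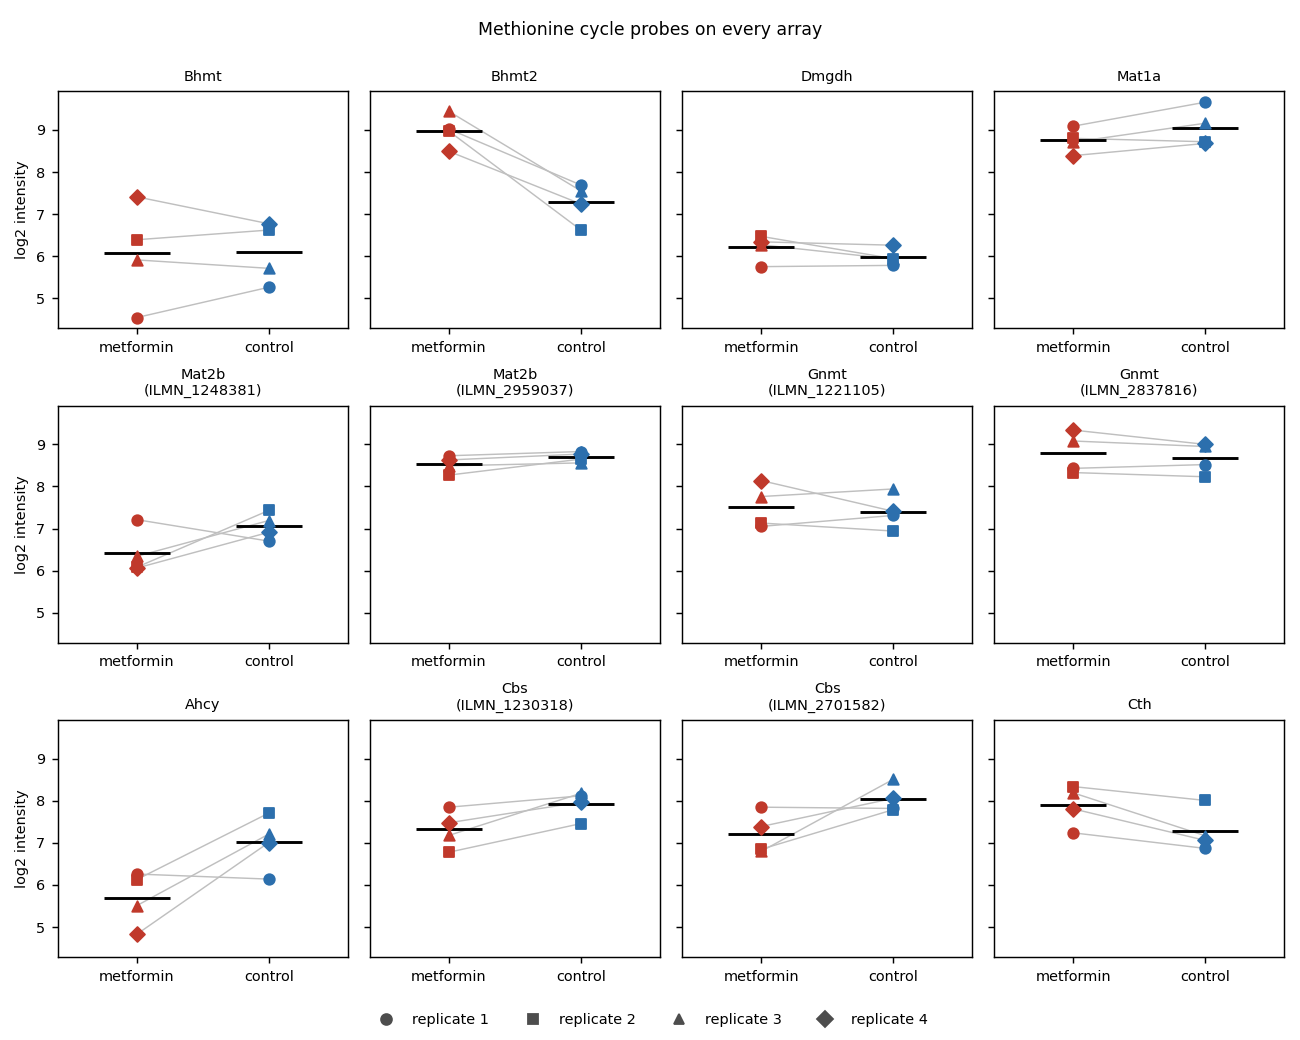
Log2 intensity of the 12 probes on every array, with metformin wells at the left and control wells at the right of each panel. Marker shapes and grey lines stand for replicate numbers and black bars for group means. Bhmt2 is the panel in which all 4 metformin wells lie above all 4 control wells, while the Bhmt wells spread from 4.54 to 7.41 and are in the same order of replicate numbers in both groups.

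Bhmt itself, the betaine-dependent enzyme, did not pass, but its interval was wide in the fit without a block. Its probe read 4.54, 6.39, 5.91 and 7.41 in metformin wells, against 5.26, 6.62, 5.71 and 6.77 in control wells. The groups overlapped over most of their range, and the lowest well of each group was replicate 1 and the highest replicate 4. The mean difference was -0.03 ± 0.55 log2 units, with an interval from -1.26 to 1.20, or from 0.418-fold to 2.30-fold. That interval, from the fit without a block, reaches past the lower bound of 1.13 for Bhmt2, so by itself it does not exclude a rise of that size. With the replicate number as a block the standard error was smaller, at 0.22. The same-numbered differences were -0.72, -0.23, 0.20 and 0.64, lower in 2 pairs and higher in the other 2, and none reached 1.13. The metformin well of replicate 1 read below 4.90, the 25th percentile of the probe means, so a change there may be understated.

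Dmgdh, whose start is 134 bases from that of Bhmt2, read 5.75, 6.47, 6.27 and 6.34 in metformin wells, against 5.78, 5.94, 5.93 and 6.26 in control wells. The groups overlapped. The difference was 0.23 ± 0.18 log2 units, with an interval from -0.17 to 0.62, which does not reach the lower bound of 1.13 for Bhmt2. The next gene beyond Dmgdh is Arsb, a lysosomal sulfatase. Its probe ILMN_1225374 averaged 9.16 ± 0.29 with metformin and 8.71 ± 0.19 in controls (SD, n = 4 each), and probe ILMN_3160662 averaged 5.86 ± 0.68 and 5.25 ± 0.42. Neither Arsb probe passed (limma adjusted p = 0.144 and 0.309).

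The genes of S-adenosylmethionine synthesis did not pass. Mat1a read 9.09, 8.80, 8.71 and 8.39 in metformin wells, against 9.66, 8.72, 9.16 and 8.68 in control wells, a difference of -0.31 ± 0.23. The groups overlapped, and in both the highest well was replicate 1 and the lowest replicate 4, the reverse of Bhmt. For Mat2b the probes differed in size. Probe ILMN_1248381 read 7.21, 6.08, 6.34 and 6.06 in metformin wells, against 6.70, 7.43, 7.19 and 6.91 in control wells (-0.64 ± 0.26). Its metformin wells of replicates 2, 3 and 4 lay below all controls, and that of replicate 1 was above 3 of the 4. Probe ILMN_2959037 read 8.73, 8.27, 8.49 and 8.63, against 8.83, 8.65, 8.56 and 8.77 in control wells (-0.17 ± 0.13), with overlapping groups.

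Gnmt, an abundant methyltransferase of liver cytosol and a drain on excess S-adenosylmethionine, was measured by probes that followed each other. Probe ILMN_2837816 read 8.43, 8.33, 9.08 and 9.34 in metformin wells, against 8.52, 8.23, 8.95 and 9.00 in control wells (0.12 ± 0.26). Probe ILMN_1221105 read 7.05, 7.13, 7.76 and 8.14, against 7.31, 6.94, 7.94 and 7.41 in control wells (0.12 ± 0.28). The groups overlapped at both probes, and at both replicates 3 and 4 were higher than replicates 1 and 2 within each group.

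Ahcy, the enzyme that clears S-adenosylhomocysteine, had the largest difference below 0. It read 6.26, 6.13, 5.51 and 4.83 in metformin wells, against 6.14, 7.71, 7.21 and 7.01 in control wells. The metformin wells of replicates 2, 3 and 4 lay below every control, while in replicate 1 the metformin well was 0.12 above its control, and the groups overlapped through that pair. The means were 5.68 ± 0.66 with metformin and 7.02 ± 0.66 in controls (SD, n = 4 each), a difference of -1.33 ± 0.37 with an interval from -2.17 to -0.50. Ahcy did not pass in the fit of all arrays without weights. It passed with array weights and when control replicate 1 was left out (-1.63). The metformin well of replicate 4 was near the dim end of the scale.

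Neither transsulfuration enzyme passed in the fit of all arrays without weights, although Cbs at ILMN_2701582 passed with array weights. Cbs, cystathionine beta-synthase, read 7.85, 6.85, 6.80 and 7.39 with probe ILMN_2701582 in metformin wells, against 7.82, 7.79, 8.51 and 8.06 in control wells (-0.82 ± 0.25). Probe ILMN_1230318 read 7.85, 6.78, 7.18 and 7.48, against 8.12, 7.46, 8.18 and 7.97 in control wells (-0.61 ± 0.24). The groups overlapped at both, through metformin replicate 1 at the first and also replicate 4 at the second.

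Cth, cystathionine gamma-lyase, read 7.24, 8.34, 8.19 and 7.81 in metformin wells, against 6.87, 8.01, 7.17 and 7.06 in control wells. The groups overlapped, but each metformin well was above the control of its number, by 0.38, 0.33, 1.01 and 0.74. The difference was 0.62 ± 0.29, with an interval from -0.03 to 1.27. Neither gene passed with the replicate block either, nor did Ahcy. In that fit Cth, Cbs at ILMN_1230318 and Ahcy fell just short of the threshold. Cbs passed at ILMN_2701582, and Mat2b at ILMN_1248381, when metformin replicate 1 was left out (-1.03 and -0.90).

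**Figure D2:**
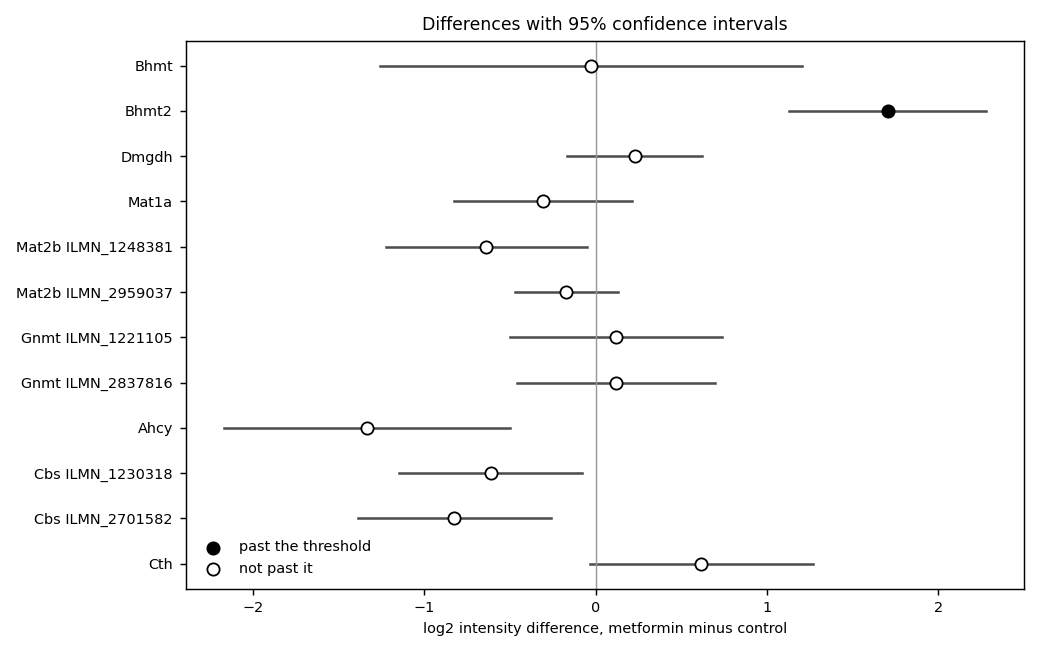
Difference in log2 intensity, metformin minus control, for the 12 probes, with points for the estimate of the fit over all probes and lines for its 95% confidence interval (4 wells per group). Bhmt2 lies at 1.70 and alone is past the threshold, and Ahcy lies at -1.33. The intervals of Bhmt, Dmgdh, Mat1a, Cth, both Gnmt probes and Mat2b at ILMN_2959037 span 0.

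In replicate 1 the metformin well was not below its control for Ahcy, Cbs at ILMN_2701582 or Mat2b at ILMN_1248381. For Ahcy it was control replicate 1 that lay apart from its group, as the lowest control. The differences of that pair were 0.12, 0.02 and 0.51, against -0.67 to -2.18 in the other pairs. Over the 920 probes past the threshold the median difference, counted in the direction of the call, was 0.65 in replicate 1, 0.92 in replicate 2, 0.90 in replicate 3 and 0.68 in replicate 4. Of the 12 probes, 4 had every same-numbered pair on 1 side, Bhmt2 and Cth higher and Cbs at ILMN_1230318 and Mat2b at ILMN_2959037 lower, where 32.5% of all probes did.

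For several of these enzymes the replicate number went with more of the spread than metformin did. The medians over all probes lay the same way, at 37.7% for the number and 19.9% for metformin or control. The number also has more levels than the group. The number accounted for 91.3% of the variation of Bhmt over the 8 arrays and for 93.6% of that of Gnmt at ILMN_2837816, against a median of 37.7% over all probes, and metformin or control for 0.027% and 2.46%. Only 1.77% and 0.98% of all probes had as large a share. For Mat1a the number accounted for 71.4%, for Dmgdh for 62.3%, for Cth for 59.1% and for Bhmt2 for 10.6%. Shares as large as these were found in 13.5%, 20.7%, 23.9% and 89.2% of all probes. In 8 of the 12 probes it was above the median of all probes. The labels do not say what a replicate number marks.

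**Figure D3:**
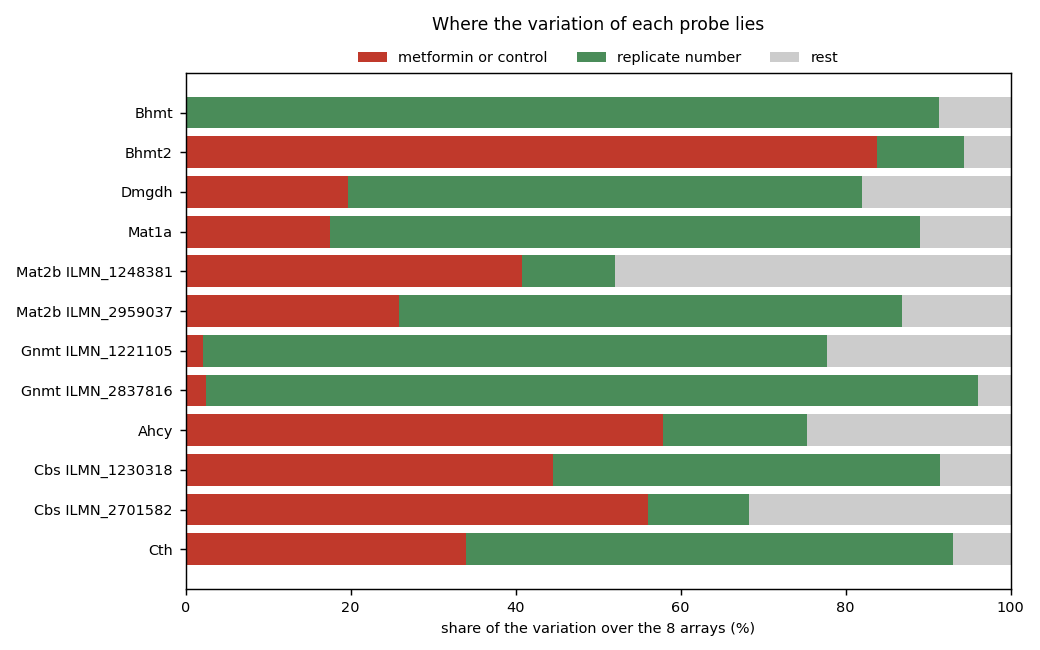
Share of the variation over the 8 arrays, in percent, that went with metformin or control, with the replicate number and with neither, for each of the 12 probes. Bhmt has 91.3% and the Gnmt probes 75.7% and 93.6% in the replicate number segment, and Bhmt2 has 83.8% in the metformin or control segment.

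The wells also differed in markers of other liver cells. The mean of 8 sinusoidal endothelial markers was 6.16, 7.81, 7.00 and 7.79 log2 units in metformin wells, against 6.14, 7.38, 6.50 and 6.98 in control wells, lowest in replicate 1 of each group, as Bhmt was. That of 5 Kupffer cell and macrophage markers was 6.07, 7.59, 7.20 and 6.54, against 6.57, 8.01, 7.84 and 6.41 in control wells. That of 4 biliary markers was 6.54, 7.36, 6.85 and 7.38 in metformin wells, against 6.30, 6.55, 6.44 and 6.52 in control wells, with a median difference of 0.67 and groups that overlapped only through metformin replicate 1. In the fit without a block 0 of the 8 endothelial, 5 macrophage, 6 stellate, 4 biliary and 2 leukocyte markers passed at the brightest probe in limma, where 4 had an unadjusted p under 0.05, as 23.0% of all probes had. With the replicate block, where 6.78% of all probes passed, Lyve1, Fcgr2b and Krt19 passed as higher and Vsig4 as lower. These 4 were named after their values were seen. The leukocyte gene Ptprc averaged 4.44 with metformin and 4.52 in controls, at the dim end of the scale. Of 8 hepatocyte markers measured, Hal rose (1.07 ± 0.25, limma adjusted p = 0.0371) and was lost when replicate 2 or 3 of either group, or metformin replicate 4, was left out (limma adjusted p of up to 0.115). The mean of the 8 hepatocyte markers was 9.35 to 9.54 in metformin wells, against 9.21 to 9.33 in control wells. Ttr, Apoa1 and Hnf4a were bright, at 13.68, 12.14 and 10.18 with metformin and 13.64, 12.24 and 10.07 in controls. The Alb probe was dim, at 6.05 with metformin and 5.65 in controls. The part of other cells in the values of the methionine cycle genes was not tested, and in such cultures fewer cells of a type and less RNA per cell cannot be told apart.

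Genes on either side of the cycle were read from 5 lists with 52 genes, of which 45 had 65 probes. The lists were chosen with earlier results of these data known, so their counts and p-values are a description and not independent tests. In the limma fit 1 of these probes rose and 4 fell, 7.69% of them, a share near the 5.64% of all probes (2.72% higher and 2.93% lower). The median difference was -0.07. Those past the threshold belonged to Nnmt, Chka, Gclc and Abcd4.

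Nnmt, nicotinamide N-methyltransferase, which spends S-adenosylmethionine on nicotinamide, fell at both of its probes. Probe ILMN_2885277 read 10.34, 10.23, 9.71 and 10.47 in metformin wells, against 11.27, 11.20, 11.28 and 11.13 in control wells (-1.03 ± 0.17, limma adjusted p = 0.0137). Probe ILMN_2665411 read 8.39, 7.99, 7.66 and 8.19, against 9.41, 9.45, 9.33 and 9.05 in control wells (-1.25 ± 0.17, limma adjusted p = 0.0101). Every metformin well lay below every control well at both, and both passed in each of the 8 fits that left out 1 array. The levels in controls were 2.04 and 2.38 times those with metformin. These were the only 2 probes past the threshold among 13 of the list of methyltransferases and adenosine metabolism, whose median difference was -0.06. Probes of Pemt (0.06 ± 0.14), which methylates phosphatidylethanolamine, Gamt (-0.06 ± 0.20), which makes creatine, and Adk (-0.09 ± 0.15 at ILMN_2986899), which removes adenosine, did not pass. Nor did Hnmt, which methylates histamine, at 4.80, 4.64, 5.14 and 4.76 in metformin wells, against 4.46, 4.38, 4.40 and 4.26 in control wells (0.46 ± 0.13, limma adjusted p = 0.0714). Its groups did not overlap, as those of 14.6% of all probes did not. The Hnmt probe was dim, with a mean of 4.61 over all wells, below 4.90, the 25th percentile of the probe means. These 4 genes were named after their values were seen.

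Of 16 probes of choline, betaine and glycine genes, 1 fell and none rose, 2 had an unadjusted p under 0.05, against 23.0% of all probes, and the median difference was 0.03. Chka, the choline kinase that commits choline to phosphatidylcholine, read 6.78, 6.99, 7.03 and 6.51 in metformin wells, against 7.43, 7.87, 7.93 and 7.51 in control wells (-0.86 ± 0.17, limma adjusted p = 0.0239). Its groups did not overlap, but it passed in only 4 of the 8 fits without 1 array. It was lost when replicate 2 or 3 of either group was left out, with a limma adjusted p of up to 0.0657. Slc44a1, a choline transporter named after its value was seen, passed only with the replicate block (0.54 ± 0.24 at ILMN_1241827, limma adjusted p = 0.210, or 0.0423 with the block). Its probes ILMN_1254938 (0.23 ± 0.28) and ILMN_2967904 (0.29 ± 0.20) passed in neither fit (limma adjusted p = 0.330 and 0.331 with the block). Chdh, which oxidises choline on the way to betaine and was also named after its values were seen, had 0.65 ± 0.31 at ILMN_1218504 and 0.42 ± 0.20 at ILMN_3109728 and did not pass.

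Of 13 probes of transsulfuration products and sulfur oxidation, 1 fell and none rose, and 2 had an unadjusted p under 0.05, against 23.0% of all probes (median -0.08). Gclc, the catalytic subunit of the enzyme that starts glutathione synthesis from cysteine, read 8.54, 7.62, 8.04 and 7.73 in metformin wells, against 9.10, 9.24, 8.47 and 8.81 in control wells (-0.92 ± 0.23, limma adjusted p = 0.0468). The groups overlapped through metformin replicate 1 and control replicate 3, and Gclc passed in only 1 of the 8 fits without 1 array, that without metformin replicate 1, with an adjusted p of up to 0.124 in the others in limma. Cdo1, cysteine dioxygenase, named after its value was seen, passed only with the block (0.64 ± 0.25, limma adjusted p = 0.155, or 0.0458 with the block).

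Of 7 probes of remethylation and cobalamin genes 1 rose (median 0.0044). Abcd4, which helps cobalamin out of lysosomes, read 6.33, 5.94, 6.12 and 5.70 at ILMN_2607474 in metformin wells, against 5.39, 4.87, 5.32 and 4.94 in control wells (0.89 ± 0.18, limma adjusted p = 0.0241). Its other probe, ILMN_2981792, did not pass (0.16 ± 0.25, adjusted p = 0.755 in limma), and the first passed in only 3 of the 8 fits without 1 array. The call was lost when control replicate 4, or replicate 2 or 3 of either group, was left out, with a limma adjusted p of up to 0.0782. No probe was named for Mtr, the other homocysteine methyltransferase.

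Of 16 probes of polyamines and methionine salvage 0 passed in limma, where 5 had an unadjusted p under 0.05, against 23.0% of all probes. Mean values were lower with metformin at 14 of them (median -0.16, against 0.0032 over all probes). The 16 probes belong to 9 genes, so they are not independent. Mtap, which recovers methionine from polyamine synthesis, averaged 8.58 ± 0.12 with metformin and 8.94 ± 0.10 in controls at ILMN_2742867 (SD, n = 4 each; limma adjusted p = 0.0940). Amd2, an S-adenosylmethionine decarboxylase, averaged 8.02 ± 0.16 with metformin and 8.31 ± 0.10 in controls (SD, n = 4 each; limma adjusted p = 0.190). Neither gene's groups overlapped, as those of 14.6% of all probes did not, and both were named for the smallest p among the brightest probes of the list.

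**Figure D4:**
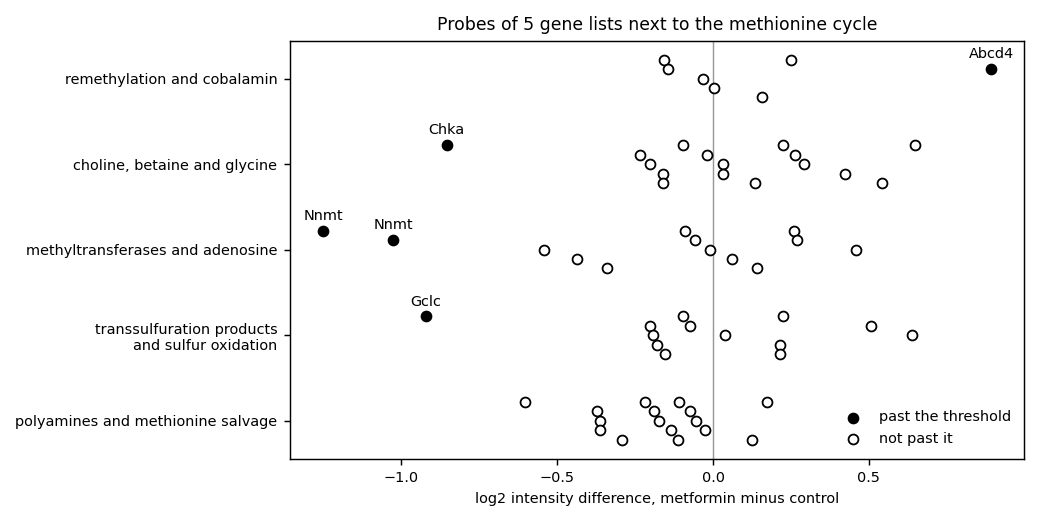
Difference in log2 intensity, metformin minus control, of the 65 probes of the 5 lists, 1 row of points per list, with filled points for probes past the threshold. Filled are both Nnmt probes at -1.25 and -1.03, Gclc at -0.92, Chka at -0.86 and 1 Abcd4 probe at 0.89.

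Among all genes, the brightest probes that followed Bhmt2 most closely over the 8 arrays were those of Sirt5, a mitochondrial deacylase, Vegfa, the endothelial growth factor, Grem1, a secreted antagonist of bone morphogenetic proteins, Cldn4, a claudin of tight junctions, and Slc27a1, a fatty acid transporter. After each probe was centred on its own mean, their root mean square differences from Bhmt2 were 0.24, 0.26, 0.27, 0.28 and 0.31 log2 units. Sirt5 read 7.33, 6.96, 7.41 and 7.01 in metformin wells, against 6.15, 5.31, 6.04 and 5.63 in control wells, with control replicate 2 lowest, as for Bhmt2. The 5 genes were picked for this likeness on the same arrays, so features shared with Bhmt2 follow from the pick. Within the methionine cycle the closest were Cth at 0.87 and Dmgdh at 0.88, and 28.3% and 30.9% of all probes were closer than these. Ahcy, at 1.69, was the farthest.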

How the data were processed

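The deposited table holds log2 intensities, 1 column per array, made by the authors; the submitters' processing notes name limma 3.26.9 and R 3.2.3 with no role. Background correction, normalization and any probe filter are not given in the sources used here. Array medians lay between 6.4770 and 6.4778, so no further normalization was applied. Detection p-values were not used, so nothing bounds the background of dim probes, and the number of arrays limits the precision. Of 16304 probes, 15301 had 1 symbol in the platform annotation, 0 several and 1003 none, and 15294 were updated through RefSeq (GRCm38.p6).

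Each probe was fitted with limma 3.58.1 (lmFit, eBayes) in R 4.3.3, metformin minus control over 8 arrays, with two-sided p-values adjusted over all probes by Benjamini-Hochberg at a threshold of 0.05. The fit was tested on simulated data. This main fit had no block and did not pair the wells. Correlations of the deviations of same-numbered wells were 0.27, 0.25, 0.13 and 0.20, each over 0.1. From these data alone, a fit with the number as a block was run as an alternative. Values after ± are standard errors of a difference unless given as SD. Named were all members, from each list up to 4 genes past the threshold with the smallest adjusted p, or 2 with the smallest p, by brightest probe, 5 genes most like Bhmt2, predicted loci left out, and genome neighbours of Bhmt; others are marked. Members and lists were chosen with earlier results of these data known.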

Additional observations from a re-analysis of the deposited data

Results flagged for a closer look

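In 1 of 48 groups of 4 wells tested over the 24 named probes, 1 well lay far from the others. Cldn4, among the genes closest to Bhmt2, read 13.32 in metformin replicate 3, against 12.82, 12.80 and 12.72 in the other metformin wells. The gap was 0.84 of the range of the group of 4 wells, above Dixon's 95% critical value. Chance gives about 1 such group in 20.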

How the results depend on the processing

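Of all probes, 920 passed in the main fit, 1664 with array weights and 1106 with the replicate block. Without 1 array 183 to 1086 passed, being 183 to 380 when replicate 2 or 3 of either group, or control replicate 4, was left out. Of the methionine cycle probes, 3 passed with array weights (Bhmt2, Ahcy and Cbs at ILMN_2701582), 1 with the replicate block and 1 to 3 without 1 array. Of the probes of the 5 lists, 7 passed with the replicate block, 3 genes with probes averaged per gene, where Abcd4 did not pass (0.52), and 2 to 6 without 1 array. Bhmt2 passed under every alternative run, all on the arrays that led to its choice. Sign changes occurred at probes whose difference in the main fit was near 0, though some reversed values lay farther from 0. Bhmt, at -0.03 in the main fit, was 0.015 with an offset of 16 and 0.076 with array weights. Without 1 array it was -0.48 to 0.48, the highest being without metformin replicate 1. Gnmt at ILMN_1221105 was -0.015 with array weights and -0.088 to 0.30 without 1 array, and at ILMN_2837816 -0.062 to 0.28. Among the genes named, the replicate block changed the calls of Slc44a1, Cdo1 and 4 cell markers and no other. The cause of these shifts was not tested, and a fit without 1 array also rests on fewer wells. Arrays give no count, so what dim probes hide cannot be bounded.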
